A study of Homo sapiens with 2 samples.

Results

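The tallest ChIP-seq peaks of wt-Cdx1 and wt-Cdx2, each carrying a FLAG tag in DLD1-TetOff cells, were examined. A pileup is the number of sequenced DNA fragments that cover a peak's summit, its highest base. Peaks were chosen by their pileup, at least 30 fragments on the 22 autosomes, leaving out positions 121000001 to 139000000 of chromosome 8. The rule selected 877 of 189894 autosomal FLAG-wt-Cdx1 peaks (0.462%) and 1127 of 213370 autosomal FLAG-wt-Cdx2 peaks (0.528%), or 2004 of all 415628 peaks of the series. Because pileup selected them, the pileups themselves are given as a description, without a test. With the threshold lowered for FLAG-wt-Cdx2 in proportion to its smaller number of kept tags, 1646 of its peaks would pass. The peaks chosen are called high-pileup peaks here.

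DLD1 is a human colorectal cancer cell line, and the DLD1-TetOff derivative carries a tetracycline-controlled transactivator that drives the tagged transgene once doxycycline (DOX) is absent. In both groups the DOX (0.5 µg/mL) was withdrawn, cells of 10 dishes were fixed 20 h later in 1% formaldehyde and pooled, and chromatin was cut with micrococcal nuclease before precipitation with an anti-FLAG antibody. The groups differ in the transgene, FLAG-wt-Cdx1 or FLAG-wt-Cdx2, and each consists of 1 library. No replicate, input library or library from cells without the tagged protein was analysed here, so no difference between the factors was tested, and all intervals below cover counting error only. The libraries held 17264704 and 14534643 tags, of which 16452141 and 13781541 remained after duplicate tags had been removed.

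Cdx1 and Cdx2 are intestinal homeobox transcription factors that bind AT-rich DNA and specify intestinal epithelium. A bound site usually gives a narrow pile of fragments over a low surrounding level. Centromeres and the regions beside them are built of satellite DNA and recent duplications, in many near-identical copies of which a genome assembly holds only a part. Fragments from all copies are then aligned to the few copies present, and tall piles can arise there without any bound protein, also in control libraries. A further kind of tall pile is known at very accessible chromatin, such as CpG-rich promoters, where precipitation can be unspecific. The features given below are therefore the surrounding level, the position, the crowding, the shape and the likeness between libraries.

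The high-pileup peaks fell into 2 kinds of place. About 1 in 5 lay beside the longest peak-free interval of a chromosome, most of them in crowded stretches. There the median level over the surrounding 10 kb was more than 10 times the genome-wide level, the fold enrichment was low and the median pileup ratio between the libraries, before scaling to depth, was near 1. Most of the others stood alone along the chromosome arms, with a fold enrichment among the highest of the lists. Where these stood away from the chromosome ends, the median unscaled ratio of FLAG-wt-Cdx2 to FLAG-wt-Cdx1 pileup depended on the choosing list. It was 1.11 for peaks chosen in FLAG-wt-Cdx1 and 1.70 for those chosen in FLAG-wt-Cdx2. No assembly table of the lists' build, GRCh37, was used. The longest interval of each chromosome without any called peak therefore stands for the gap at its centromere, and the outermost summit for its telomere. On chromosomes 13, 14, 15, 21 and 22 that interval runs from position 1 to the first peak. Its edge and the first outermost summit nearly coincide there, and peaks near both were counted beside the interval.

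Near the longest peak-free interval, defined as within 2 Mb of either edge, lay 200 high-pileup peaks of FLAG-wt-Cdx1 (22.8%, Wilson 95% interval 20.2 to 25.7) against 2.06% of all its autosomal peaks. For FLAG-wt-Cdx2 the number was 195 (17.3%, 15.2 to 19.6) against 2.01% of all. They were on 18 chromosomes in FLAG-wt-Cdx1 and 17 in FLAG-wt-Cdx2. Chromosomes 10, 16 and 4 held the most, with 37, 36 and 32 peaks in FLAG-wt-Cdx1 and 36, 36 and 39 in FLAG-wt-Cdx2, followed by chromosome 21 with 20 and 18. Chromosomes 5, 14, 15 and 22 held none in either list. They lay close to the edge of the interval: the median distance was 43.7 kb in FLAG-wt-Cdx1 and 49.7 kb in FLAG-wt-Cdx2, and 109 (54.5%) and 102 (52.3%) were within 100 kb.

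Within 2 Mb of an outermost summit lay 80 high-pileup peaks of FLAG-wt-Cdx1 (9.12%, 7.39 to 11.2), against 2.3% of all autosomal peaks. In FLAG-wt-Cdx2 there were 81 (7.19%, 5.82 to 8.85) against 2.61% of all. Unlike those beside the peak-free interval, they did not crowd at the edge. Their median distance from the outermost summit was 1175 kb in FLAG-wt-Cdx1 and 1177 kb in FLAG-wt-Cdx2, and 4 and 5 of them lay within 100 kb of it. The 1 Mb bin of chromosome 2 from 89000001 to 90000000 held 10 high-pileup peaks in each list, among 29 called peaks in FLAG-wt-Cdx1 (0.0153% of all autosomal peaks) and 35 in FLAG-wt-Cdx2 (0.0164%). The remaining 587 and 841 high-pileup peaks are called "elsewhere" below.

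The share beside the peak-free interval differed between steps of pileup. It was 2.01% of FLAG-wt-Cdx1 peaks with a pileup of 4 to 7 and 2.33% of those at 15 to 19. At 25 to 29, just outside the rule, it was 7.46% (5.82 to 9.53). It was 17.2% at 30 to 39, 23.9% at 40 to 59, 21.1% at 60 to 99, and 79.5% (64.5 to 89.2) of the 39 peaks at 100 or more. In FLAG-wt-Cdx2 the corresponding share was 5.72% at 25 to 29, 10.6% at 30 to 39, 24.6% at 40 to 59 and 24.2% at 60 to 99. At 100 or more it was 15.1% (10.3 to 21.7) of 152 peaks. At this height the number near the interval was 31 in FLAG-wt-Cdx1 and 23 in FLAG-wt-Cdx2, and the number elsewhere 7 and 107, so that the shares differed mainly through the peaks elsewhere. The threshold itself marked no break: in FLAG-wt-Cdx1 there were 75 peaks at a pileup of 29 and 77 at 30, with a median fold enrichment of 11.7 and 11.8, and in FLAG-wt-Cdx2 96 and 73 peaks had a median fold enrichment of 11.6 and 12.9.

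**Figure D1:**
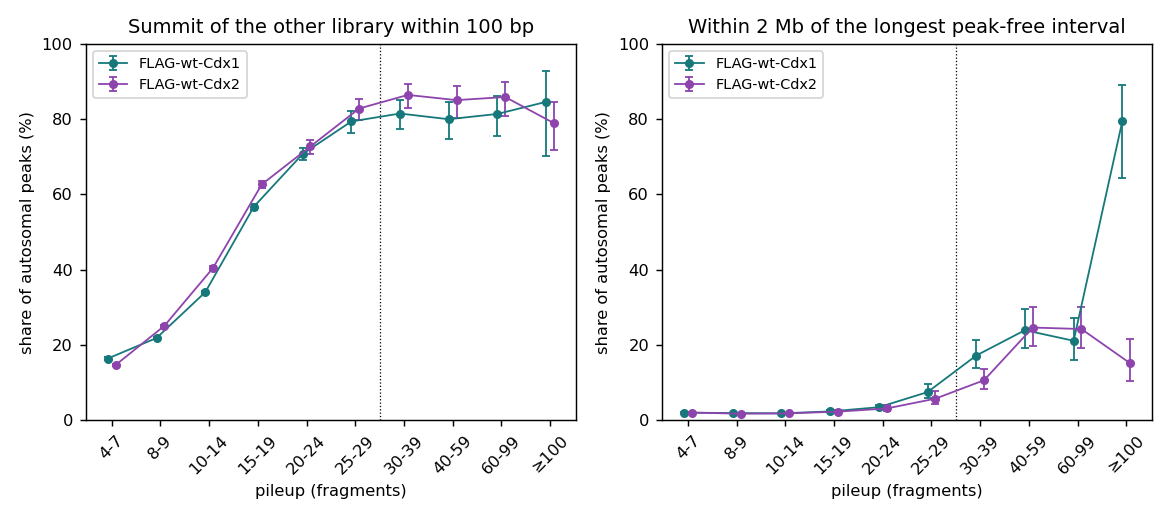
Share of autosomal peaks (%, y axis) in each step of pileup (fragments, x axis) for both libraries, with Wilson 95% intervals as bars; the dotted line marks the threshold of 30. Left, peaks with a summit of the other library within 100 bp, a share that levelled off near 80% from 25 fragments on; right, peaks within 2 Mb of the longest peak-free interval, which made up 79.5% of the FLAG-wt-Cdx1 and 15.1% of the FLAG-wt-Cdx2 peaks with at least 100 fragments.

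The highest pileup of both lists was at the edge of the chromosome 1 interval, at chr1:121484368-121485470 in FLAG-wt-Cdx1, where it was 232 fragments, and at chr1:121484366-121485474 in FLAG-wt-Cdx2, where it was 250. The summits, 12 bp apart, lay 0.19 and 0.178 kb from the interval. With 1 tag kept per position and strand, a pileup cannot exceed 2 fragment lengths, which is 262 fragments in FLAG-wt-Cdx1 and 272 in FLAG-wt-Cdx2. These peaks thus stood at 88.5% and 91.9% of the ceiling. The next highest, at chr16:46403599-46403877, had 220 fragments in FLAG-wt-Cdx1 and 226 in FLAG-wt-Cdx2, with summits on the same base.

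On chromosome 10 the pileup was 196 in both libraries at summits 25 bp apart (42385215 in FLAG-wt-Cdx1), and 195 against 192 at summits 8 bp apart (42599651). At 61968955 of chromosome 7 it was 191 in FLAG-wt-Cdx1 and 214 in FLAG-wt-Cdx2. All 10 of the tallest FLAG-wt-Cdx1 peaks lay near the longest peak-free interval of their chromosome, on chromosomes 1, 6, 7, 10 and 16. Of the 10 tallest FLAG-wt-Cdx2 peaks 7 did so, and each of these 7 had a FLAG-wt-Cdx1 counterpart among the 10 tallest of that list.

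The other 3 of the 10 tallest FLAG-wt-Cdx2 peaks lay elsewhere. At chr2:72060387-72060840 the pileup was 164 in FLAG-wt-Cdx2 and 61 in FLAG-wt-Cdx1, a ratio of 3.21 (exact 95% interval 2.38 to 4.38) after scaling to the kept tags. It was 162 against 103 at chr19:49324883-49326217, a scaled ratio of 1.88 (1.46 to 2.43), and 161 against 83 at chr7:47402272-47402993, a scaled ratio of 2.32 (1.77 to 3.06). These peaks were picked for their FLAG-wt-Cdx2 pileup, so the ratios are a description. The pileups stood at 59.2% to 60.3% of the ceiling of 272.

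The local background differed between the places. It is the level that the peak caller derived from all tags in the 10 kb around a peak, the peak's own tags included. Genome-wide it was 60.9 tags per 10 kb in FLAG-wt-Cdx1 and 51.0 in FLAG-wt-Cdx2. Near the peak-free interval the median was 13.0 times the genome-wide level in FLAG-wt-Cdx1 and 15.5 times in FLAG-wt-Cdx2. It was 3.00 and 2.92 times for high-pileup peaks elsewhere, 3.79 and 5.58 times near an outermost summit, and 1.17 and 1.08 times over all autosomal peaks. At least 5 times the genome-wide level was found at 160 of 200 peaks (80.0%) near the interval in FLAG-wt-Cdx1 and at 165 of 195 (84.6%) in FLAG-wt-Cdx2, against 116 of 587 (19.8%) and 221 of 841 (26.3%) elsewhere. With the fragments under the summit itself taken out, the medians were 12.2 and 14.5 near the interval and 2.30 and 2.08 elsewhere.

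The highest local background of FLAG-wt-Cdx1, 3430 tags per 10 kb or 56.3 times the genome-wide level, was at chr16:46389934-46390208. Its pileup was 97 and its fold enrichment 2.13, the lowest of the entire list. The lowest fold enrichment of the FLAG-wt-Cdx2 list, 1.91, was at chr10:42390966-42391132, where a pileup of 61 stood on 2314 tags per 10 kb. A peak among the tallest by pileup was therefore the weakest of its list relative to its surroundings.

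**Figure D2:**
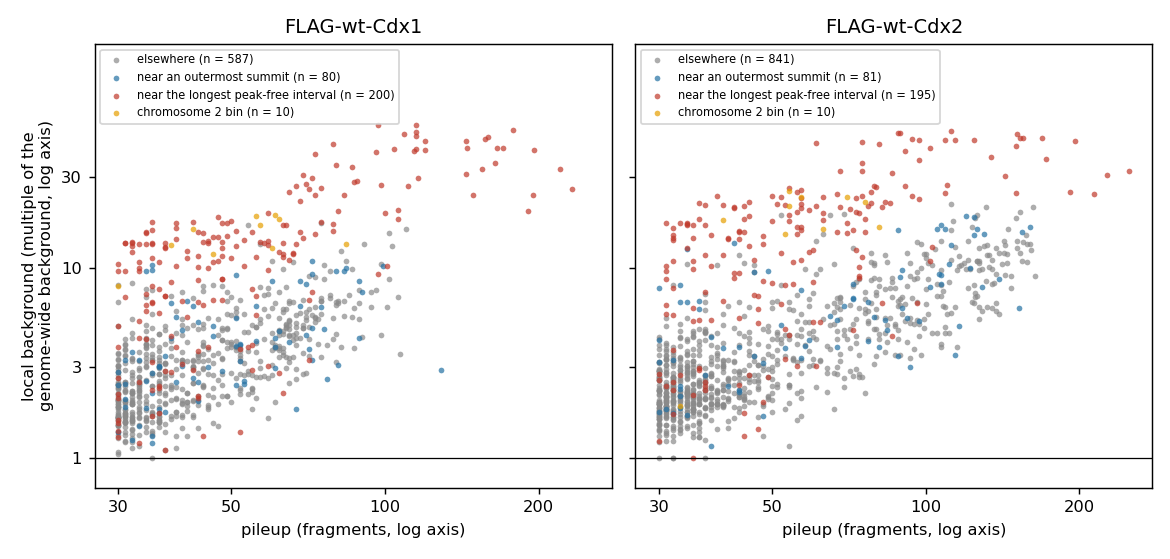
Local background (y axis, multiple of the genome-wide background, log axis) against pileup (x axis, fragments, log axis) of each high-pileup peak in FLAG-wt-Cdx1 (left) and FLAG-wt-Cdx2 (right), coloured by place. Peaks near the longest peak-free interval and in the chromosome 2 bin had medians of 13.0 to 19.5 times the genome-wide level, and peaks elsewhere medians of 3.00 and 2.92 times.

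Fold enrichment, the pileup plus 1 over the local background plus 1, followed the same division. Its median near the interval was 5.01 in FLAG-wt-Cdx1 and 4.91 in FLAG-wt-Cdx2, close to that of all autosomal peaks (5.34 and 4.72), although the pileups there were chosen to be high. Elsewhere it was 13.0 and 14.4, and near an outermost summit 12.6 and 13.5. A fold enrichment under 5 was given to 100 of the 200 peaks near the interval in FLAG-wt-Cdx1 and 101 of 195 in FLAG-wt-Cdx2, and to 6 of 587 and 7 of 841 elsewhere. Among the same number of peaks ranked highest by fold enrichment, 24 (12.0%) and 26 (13.3%) of the high-pileup peaks near the interval were found, and 346 (58.9%) and 607 (72.2%) of those elsewhere. A ranking by pileup and a ranking by fold enrichment thus picked largely different peaks beside the interval.

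Peak shape differed as well. The median length near the interval was 238.5 bp in FLAG-wt-Cdx1 and 245 bp in FLAG-wt-Cdx2, elsewhere 435 and 336 bp, and near an outermost summit 582.5 and 604 bp, against 158 and 161 bp over all autosomal peaks. Lengths of at least 600 bp were found at 252 high-pileup peaks of FLAG-wt-Cdx1 (28.7%, against 0.680% of all its autosomal peaks) and 263 of FLAG-wt-Cdx2 (23.3%, against 0.551%). The longest peak of both lists, 1802 bp and 1806 bp, was at chr1:7628108-7629909 in FLAG-wt-Cdx1. Its pileup was 102 in FLAG-wt-Cdx1 and 112 in FLAG-wt-Cdx2, with no other called peak within 10 kb, and its summits were 1025 bp apart within the same broad peak.

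**Figure D3:**
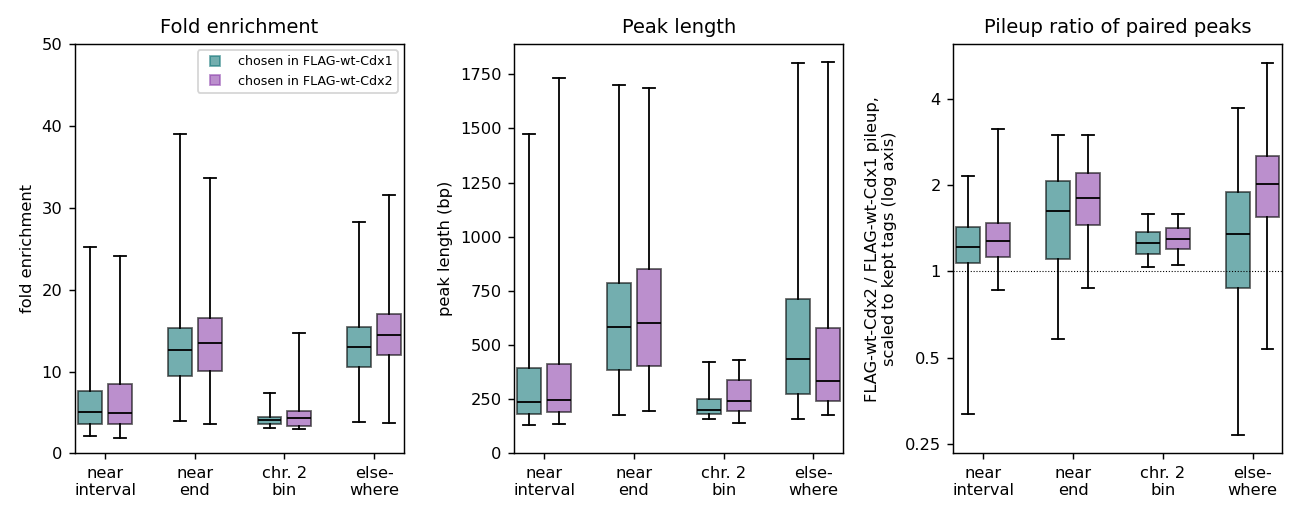
Fold enrichment (left), peak length in bp (middle) and the FLAG-wt-Cdx2 to FLAG-wt-Cdx1 pileup ratio of paired peaks scaled to kept tags (right, log axis) for high-pileup peaks by place, with boxes from the lower to the upper quartile, the median as a line and whiskers to the lowest and highest value; colours give the list in which peaks were chosen. Peaks near the peak-free interval and in the chromosome 2 bin had low fold enrichment (medians 4.06 to 5.01) and short peaks, whereas peaks elsewhere had median fold enrichments of 13.0 and 14.4. Ratios ran from 0.318 to 3.15 near the interval and from 0.269 to 5.37 elsewhere. Their interquartile ranges were 1.07 to 1.43 and 1.12 to 1.48 near the interval, and 0.877 to 1.89 and 1.55 to 2.53 elsewhere.

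Agreement between the libraries was taken first from position. A summit of the other library lay within 100 bp of 712 of the 877 high-pileup FLAG-wt-Cdx1 peaks (81.2%, Wilson 95% interval 78.5 to 83.6) against 29.5% of all its autosomal peaks. For FLAG-wt-Cdx2 it was 958 of 1127 (85.0%, 82.8 to 87.0) against 26.3%. By place the share was 82.5% and 86.7% near the interval and 81.6% and 85.3% elsewhere. Near an outermost summit it was lower, 73.8% and 79.0%. Nor did it set high-pileup peaks apart from those just under the rule, since it was 79.4% and 82.8% at a pileup of 25 to 29, after 16.4% and 14.7% at 4 to 7. Agreement within 100 bp was therefore similar near the interval, elsewhere and just under the rule, and somewhat lower near an outermost summit. It also differed by peak length, as given below.

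On a finer scale, paired summits lay closer together beside the interval. There they were a median of 6 bp apart for peaks chosen in FLAG-wt-Cdx1 and 5 bp for FLAG-wt-Cdx2, and 70.3% and 71.0% were within 10 bp. Elsewhere the medians were 18 and 16 bp, with 36.3% and 37.0% within 10 bp, and over all paired autosomal peaks the median was 26 bp.

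Both peaks of a pair passed 30 fragments in 538 pairs, which is 61.3% of the high-pileup FLAG-wt-Cdx1 peaks and 47.7% of those of FLAG-wt-Cdx2. A weaker partner was found for a further 174 and 420, and none within 100 bp for 165 and 169. Of the peaks without a partner, 94 in each list had a summit of the other library within 300 bp. They were long, with a median of 633 bp in FLAG-wt-Cdx1 and 616 bp in FLAG-wt-Cdx2, against 357.5 and 302.5 bp for those with a partner. Elsewhere, 97.1% and 95.2% of high-pileup peaks under 300 bp had a partner and 63.9% and 65.2% of those of 600 bp or more, yet 99.5% of the latter in both lists had a summit of the other library within 1 kb. When overlap of peaks by at least 1 bp was counted in place of summits, 97.7% and 97.3% were shared.

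No summit of the other library within 1 kb was found for 15 FLAG-wt-Cdx1 and 22 FLAG-wt-Cdx2 high-pileup peaks. A summit within 1 kb was thus found for 98.3% and 98.0%, against 44.2% and 39.2% of all autosomal peaks and 93.7% and 93.9% of those with a pileup of 25 to 29. Of these, 9 and 3 were near the interval, and 6 and 18 elsewhere. The pileups of the 6 elsewhere ran from 30 to 102, and those of the 18 from 30 to 112, with a median of 30 and 32.5. The highest of each, 102 and 112 fragments, belong to the same broad chromosome 1 peak, whose called regions overlap.

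Agreement in height separated the places again. For paired peaks near the interval, the FLAG-wt-Cdx2 pileup over the FLAG-wt-Cdx1 pileup had a median of 1.02 when peaks were chosen in FLAG-wt-Cdx1 and 1.07 when chosen in FLAG-wt-Cdx2, without scaling. Elsewhere it was 1.13 and 1.69. Choosing in 1 list favours that list, so both choices are given. Pairs were also chosen by a summed unscaled pileup of at least 60. This choice uses the pileups that form the ratio, so it can favour the list with more very tall peaks. Its median was 1.05 near the interval (164 pairs) and 1.09 in the chromosome 2 bin (8 pairs). Near an outermost summit it was 1.45 (57 pairs), and elsewhere 1.49 (465 pairs). Scaled to the kept tags, of which FLAG-wt-Cdx2 had 0.838 times as many, these ratios were 1.25, 1.30, 1.73 and 1.77. Over all paired autosomal peaks the ratio was 0.889 unscaled and 1.06 scaled. A pileup near the ceiling cannot differ much between libraries, and how far this narrowed the ratio at the tallest peaks was not tested.

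The spread of the ratios differed too. The interquartile range of scaled ratios near the interval ran from 1.07 to 1.43 for peaks chosen in FLAG-wt-Cdx1 and from 1.12 to 1.48 for FLAG-wt-Cdx2, but elsewhere from 0.877 to 1.89 and from 1.55 to 2.53. Spearman's rho between the paired pileups was 0.914 (165 pairs) and 0.927 (169 pairs) near the interval and 0.761 (479 pairs) and 0.734 (717 pairs) elsewhere, as a description over peaks that share their libraries and, in groups, their surroundings. Scaled ratios above 2 were found at 1 and 4 pairs near the interval, and at 108 and 366 pairs elsewhere.

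**Figure D4:**
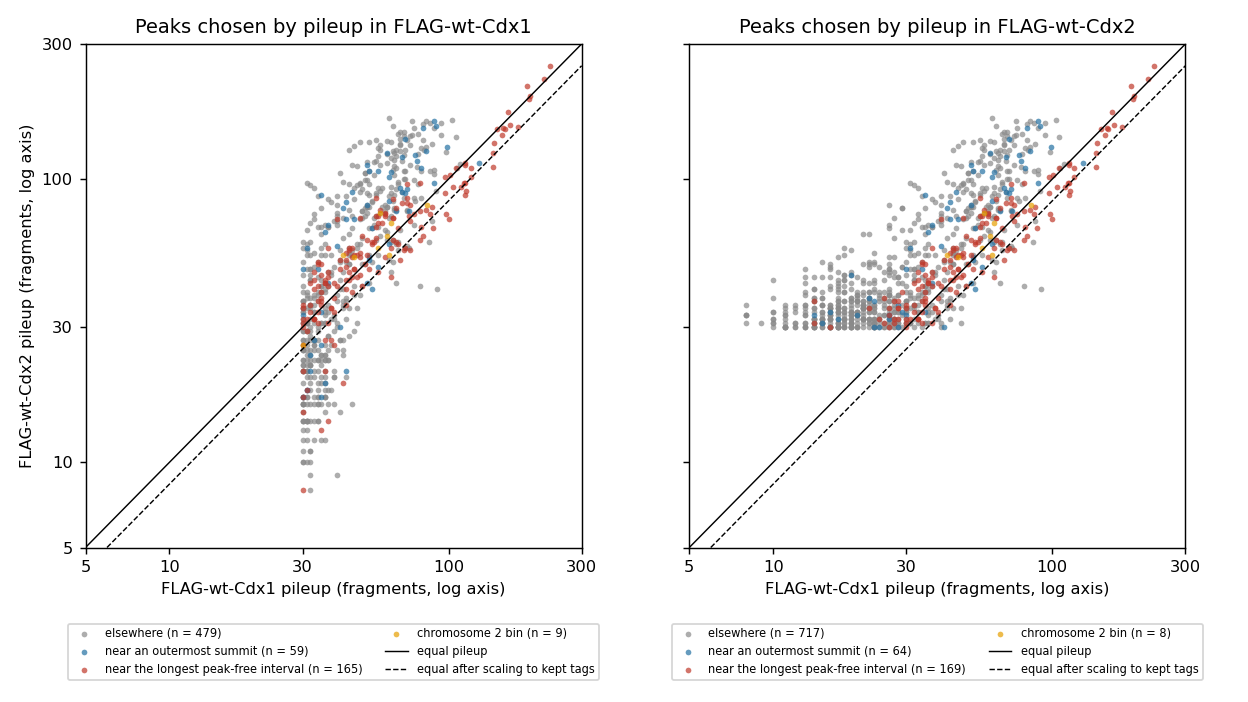
Pileup in FLAG-wt-Cdx2 (y axis) against FLAG-wt-Cdx1 (x axis), both in fragments on log axes, of paired peaks chosen by pileup in FLAG-wt-Cdx1 (left, 712 pairs) and in FLAG-wt-Cdx2 (right, 958 pairs), coloured by place. The solid line marks equal pileups and the dashed line pileups equal after scaling to kept tags; peaks near the peak-free interval followed the solid line (median ratio 1.02 and 1.07), and peaks elsewhere spread to both sides on the left and lay mostly above it on the right.

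The pairs with the highest and the lowest ratio were almost all elsewhere. Among peaks chosen in FLAG-wt-Cdx2, the highest scaled ratio was 5.37 (2.46 to 13.4), at chr21:40180414-40180650 with 36 fragments against 8 in FLAG-wt-Cdx1. It was 5.25 (2.60 to 11.7) at chr3:62027358-62027590, with 44 against 10. The next 3, on chromosomes 1, 5 and 9, each had 33 fragments against 8, a ratio of 4.92 (2.23 to 12.3). Among peaks chosen in FLAG-wt-Cdx1, the highest was 3.74 (2.47 to 5.79) at chr9:91326653-91327016, with 31 fragments against 97 in FLAG-wt-Cdx2, and the fifth highest was 3.36. All these pairs were picked for their extreme ratios, from peaks chosen by the same pileups, so their ratios and intervals are a description.

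In the opposite direction, the lowest scaled ratio among peaks chosen in FLAG-wt-Cdx1 was 0.269 (0.115 to 0.562), at chr3:111274338-111274809 with 40 fragments against 9. The other 4 of the 5 lowest ran from 0.298 to 0.373, on chromosomes 12, 6, 10 and 19, of which the peak on chromosome 6 lay 751 kb from the peak-free interval. Chosen in FLAG-wt-Cdx2, the lowest were 0.538 (0.363 to 0.786) and 0.635 (0.426 to 0.934), both on chromosome 8, at chr8:139754055-139755813 and chr8:142668198-142668622, beyond the left-out block. There the pileups were 41 against 91 and 42 against 79. The next 3, on chromosomes 12, 22 and 10, were 0.787, 0.790 and 0.843.

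Crowding was examined by joining high-pileup peaks whose summits lay within 10 kb. FLAG-wt-Cdx1 gave 675 groups, of which 600 were single peaks, and FLAG-wt-Cdx2 gave 925, of which 851 were single. Groups of at least 5 held 62.5% of the high-pileup peaks near the interval in FLAG-wt-Cdx1 and 61.5% in FLAG-wt-Cdx2, against 1.87% and 2.02% of those elsewhere and 0 of 80 and 0 of 81 near an outermost summit. There were 15 such groups in FLAG-wt-Cdx1 and 14 in FLAG-wt-Cdx2. Counted as groups rather than peaks, the share near the interval was 9.78% and 6.70%.

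The largest was on chromosome 16 at the edge of the peak-free interval, with 28 high-pileup peaks between 46386250 and 46435517 in FLAG-wt-Cdx1 and 27 in FLAG-wt-Cdx2 over the same 49.3 kb. Every peak called in it had at least 30 fragments. The pileups ran from 39 to 220 in FLAG-wt-Cdx1, with a median of 99, and from 34 to 226 in FLAG-wt-Cdx2, with a median of 76. Fold enrichments had medians of 3.73 and 4.33. The unscaled ratio over its 22 pairs had a median of 0.848, which after scaling was 1.01.

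On chromosome 10, 17 high-pileup peaks of FLAG-wt-Cdx1 between 42380255 and 42408287 formed a group with a median pileup of 104 and a median local background of 41.4 times the genome-wide level. A second group of 10 lay between 42355283 and 42369414, starting 0.107 kb from the interval. In FLAG-wt-Cdx2 both stretches were joined in a group of 25 over 51.8 kb. On chromosome 4 a pair of groups lay 537 and 501 kb from the interval, with 12 and 10 peaks in FLAG-wt-Cdx1 and 15 and 12 in FLAG-wt-Cdx2, and median scaled ratios between 1.38 and 1.47.

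Neighbouring summits in these groups were irregularly spaced. The gaps in the chromosome 16 group ran from 385 to 5400 bp in FLAG-wt-Cdx1 with a median of 1368 bp and a coefficient of variation of 0.702. Those in the chromosome 10 group ran from 340 to 6144 bp, with a coefficient of variation of 0.875.

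The largest group elsewhere, on chromosome 19 from 8992355 to 9026665, was of another kind. It held 11 high-pileup peaks among 12 called in FLAG-wt-Cdx1 and 12 among 13 called in FLAG-wt-Cdx2, and lay 15575 kb from the peak-free interval. In FLAG-wt-Cdx1 the first 10 of 11 gaps between neighbouring summits were 2885, 2723, 3161, 3188, 2824, 3000, 3372, 2731, 2740 and 2769 bp, and the last was 4917 bp. The coefficient of variation was 0.204. FLAG-wt-Cdx2 had a further peak within 329 bp of its neighbour, and its other gaps ran from 2544 to 4921 bp, with a median over all of 2822.5 bp. Pileups were 34 to 64 and 32 to 92, fold enrichments had medians of 7.18 and 7.99, and the local background was 6.66 and 9.86 times the genome-wide level. In fold enrichment and local background the group thus lay between the medians of the peaks beside the interval and of those elsewhere. Its unscaled ratio was 1.27 in both lists, and its spacing was the most even among groups of at least 9 peaks.

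A smaller group of even spacing was at 43092913 to 43096994 of chromosome 8, 742 kb from the interval, where 5 FLAG-wt-Cdx1 peaks lay 916 to 1104 bp apart, with a coefficient of variation of 0.0877 and a median length of 570 bp. In FLAG-wt-Cdx2 the 5 peaks there lay 661 to 1143 bp apart, with a coefficient of variation of 0.214. The other group of at least 5 elsewhere, in FLAG-wt-Cdx2, was at 133024114 to 133034753 of chromosome 2 and included the tallest FLAG-wt-Cdx1 peak elsewhere, chr2:133029150-133029446, with 110 fragments against 113. Its median fold enrichment was 5.57 and its median background 17.7 times the genome-wide level, which is in the range of the peaks beside the interval although it lay 37683 kb away.

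**Figure D5:**
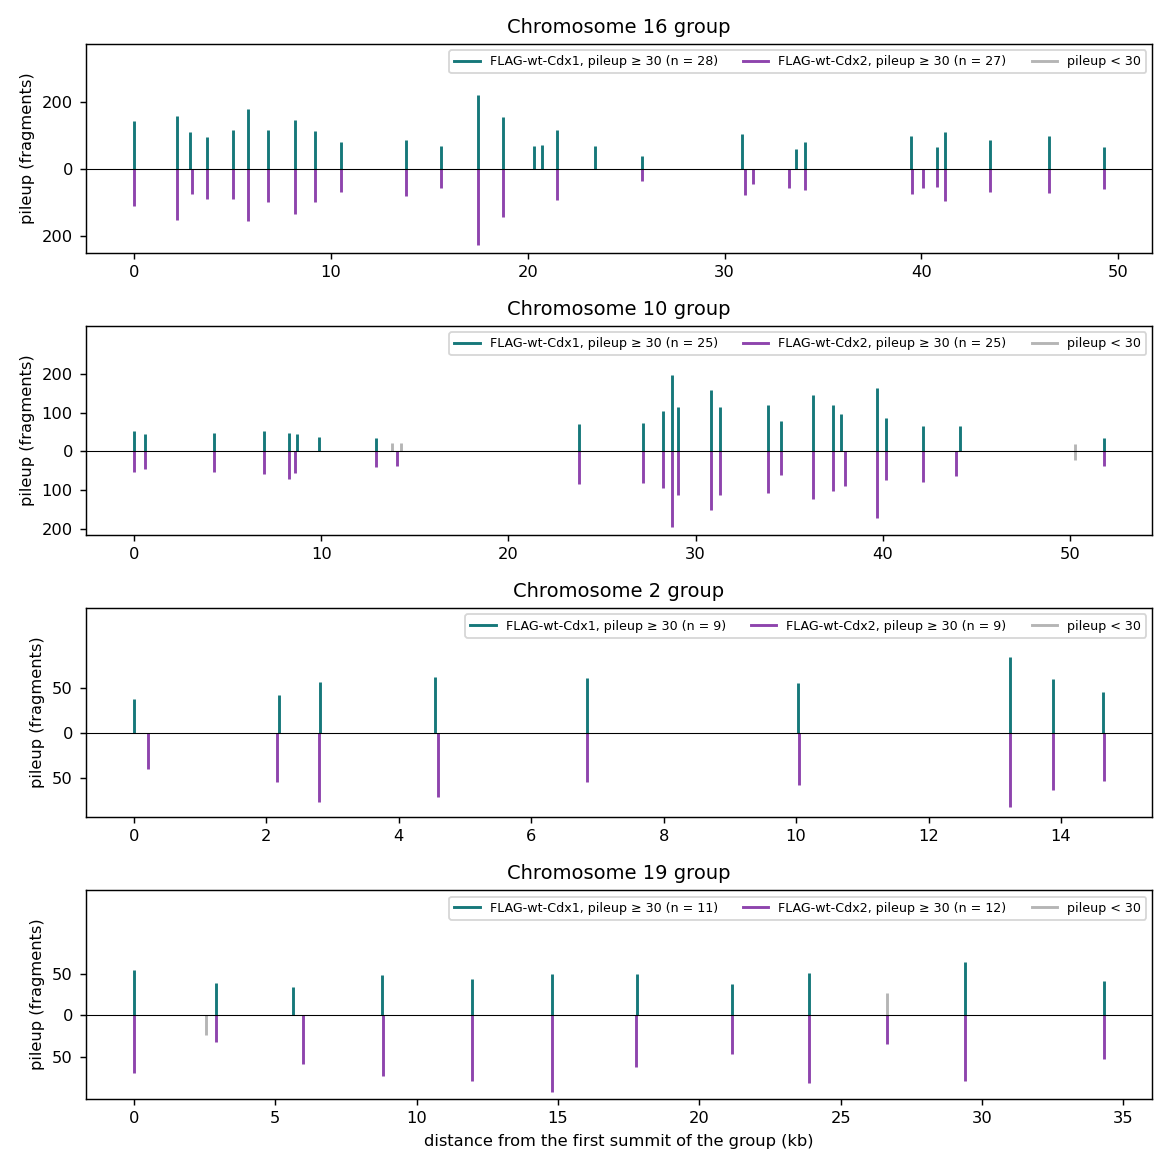
Pileup (y axis, fragments) of every called peak in groups on chromosomes 16, 10, 2 and 19 against the distance from the first summit of the group (x axis, kb), FLAG-wt-Cdx1 upwards and FLAG-wt-Cdx2 downwards, with peaks under 30 fragments in grey. The chromosome 10 panel covers the 51.8 kb group of FLAG-wt-Cdx2; most peaks on chromosomes 16, 10 and 2 have a counterpart at the same place in the other library, 22 of 28 FLAG-wt-Cdx1 peaks on chromosome 16, and the chromosome 19 peaks stand at nearly even distances of about 2885 bp.

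In the chromosome 2 bin the high-pileup peaks were confined to 1 stretch of 26.7 kb, from 89853226 to 89879922, except for 1 FLAG-wt-Cdx2 peak. The stretch held 12 FLAG-wt-Cdx1 peaks, 10 of them high, and 11 FLAG-wt-Cdx2 peaks, 9 of them high. Its median local background was 13.2 times the genome-wide level in FLAG-wt-Cdx1 and 17.9 times in FLAG-wt-Cdx2. The rest of the bin held 17 and 24 peaks, with a median background of 1.05 times in both libraries. The stretch lay 2442 kb from the peak-free interval, just beyond the 2 Mb limit.

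Its tallest peak, at chr2:89878348-89878611, had 84 fragments in FLAG-wt-Cdx1 and 81 in FLAG-wt-Cdx2, with summits on the same base. The other FLAG-wt-Cdx1 pileups of at least 30, in order of position, were 30, 38, 42, 57, 62, 61 and 56 before it and 60 and 46 after it. The FLAG-wt-Cdx2 pileups nearest to the same summits were 26, 40, 54, 76, 70, 54 and 57, and 63 and 53. The pileups of the libraries thus followed each other along the stretch, with scaled ratios from 1.03 to 1.59 at the 9 pairs within 100 bp. Fold enrichments ran from 3.13 to 7.33 in FLAG-wt-Cdx1 and from 2.97 to 6.59 in FLAG-wt-Cdx2. The exception, at chr2:89218485-89218715, had 33 fragments in FLAG-wt-Cdx2, a fold enrichment of 14.7 and a background of 1.88 times the genome-wide level, unlike the peaks of the stretch. The nearest FLAG-wt-Cdx1 summit was 12313 bp away, farther than for any other high-pileup peak of the list.

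Peaks beside the interval were not all of the crowded kind. The 38 that stood alone in FLAG-wt-Cdx1 had a median fold enrichment of 11.8 (5.72 to 22.0) and a background of 2.98 times the genome-wide level, and the 35 in FLAG-wt-Cdx2 had 13.4 (5.92 to 24.1) and 3.31 times. They lay a median of 460 and 410 kb from the interval. The 125 and 120 peaks in groups of at least 5 had a median fold enrichment of 3.90 and 4.07 and a background of 15.1 and 20.2 times, and lay 21.9 and 34.1 kb from it. Fold enrichment and background of the peaks that stood alone were thus near those of peaks elsewhere. Their unscaled pileup ratio had a median of 1.00 (33 pairs) and 1.18 (32 pairs), against 1.05 and 1.06 in the groups of at least 5. For peaks that stood alone elsewhere it was 1.11 and 1.70, so the difference lay mainly in the FLAG-wt-Cdx2 choice.

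Near the chromosome ends, the high-pileup peaks had fold enrichments near those elsewhere, but were longer. Their median unscaled pileup ratio was 1.36 when chosen in FLAG-wt-Cdx1 and 1.51 when chosen in FLAG-wt-Cdx2, against 1.13 and 1.69 elsewhere. They stood on a higher background, 3.79 and 5.58 times the genome-wide level against 3.00 and 2.92 times. At least 5 times the genome-wide level was found at 24 of 80 in FLAG-wt-Cdx1 and 47 of 81 in FLAG-wt-Cdx2, against 19.8% and 26.3% elsewhere. A length of at least 600 bp was found at 47.5% and 50.6%, against 33.0% and 23.5% elsewhere. Most stood alone, 64 of 80 in FLAG-wt-Cdx1 and 62 of 81 in FLAG-wt-Cdx2. Among them was the peak of highest fold enrichment among the autosomal peaks analysed, at chr3:196625583-196625847, 1276 kb from the outermost summit. Its pileup was 129 in FLAG-wt-Cdx1 and 114 in FLAG-wt-Cdx2, and its fold enrichment 39.0 and 33.6, on a background of 178 tags per 10 kb in both libraries. The peak was 265 bp long, with no other called peak within 10 kb, and its scaled ratio was 1.06 (0.813 to 1.37). The tallest FLAG-wt-Cdx2 peak near an end, chr13:113180332-113181252, had 160 fragments against 89 in FLAG-wt-Cdx1, a scaled ratio of 2.15 (1.65 to 2.81), and a length of 921 bp.

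Elsewhere, the tallest peaks were of both shapes. At chr10:98561245-98561619 the pileup was 107 in FLAG-wt-Cdx1 and 109 in FLAG-wt-Cdx2, with a fold enrichment of 28.2 and 26.5 and summits 1 bp apart. At chr22:44875681-44875956 it was 115 in FLAG-wt-Cdx2 and 54 in FLAG-wt-Cdx1, with a fold enrichment of 31.5 and 20.1. These were the narrower kind. The first was 375 bp long in FLAG-wt-Cdx1, on a background of 3.54 times the genome-wide level. The second was 276 bp long in FLAG-wt-Cdx2, on 3.86 times. Both levels were above the medians elsewhere of 3.00 and 2.92 times. The broad kind had a high background although no other peak was called within 10 kb: at chr19:49324880-49326222, 1343 bp long, it was 790 tags per 10 kb in FLAG-wt-Cdx1 and 1072 in FLAG-wt-Cdx2. The tags of so long a peak are themselves part of its 10 kb window.

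By length, the 172 high-pileup FLAG-wt-Cdx1 peaks elsewhere under 300 bp had a median fold enrichment of 14.1 and a background of 1.85 times the genome-wide level, and the 194 of at least 600 bp 11.0 and 4.55 times. In FLAG-wt-Cdx2 the 372 short peaks had 14.7 and 2.16 times, and the 198 long peaks 12.5 and 6.66 times. Short peaks elsewhere thus stood on the lower surrounding level in both libraries. Over all places together, high-pileup peaks were most frequent on chromosome 16, with 1.85% of its FLAG-wt-Cdx1 and 1.56% of its FLAG-wt-Cdx2 peaks. Of these 84 and 86 peaks, 36 in each list lay near the peak-free interval. Chromosome 22, which held none there, followed with 1.58% and 1.42%. They were least frequent on chromosome 3, with 0.0852% and 0.221%.

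By these measures the crowded peaks beside the interval and in the chromosome 2 stretch had a raised surrounding level, low fold enrichment and many neighbours. Piles over repeated sequence can show these features, but the features are not independent. The surrounding level includes the tags of neighbouring peaks, and fold enrichment is computed from that level. The unscaled pileup ratio of the crowded peaks was near 1 as a pooled median. The medians of single groups of at least 5 ranged from 0.848 on chromosome 16 to 1.31 on chromosome 8. The high-pileup peaks elsewhere that stood alone, 497 in FLAG-wt-Cdx1 and 753 in FLAG-wt-Cdx2, had a median fold enrichment of 13.4 and 14.7. Choosing these peaks by pileup favours a high fold enrichment wherever the surrounding level is low. Their surrounding level, 2.69 and 2.72 times the genome-wide level, was below that beside the interval but above that of all autosomal peaks, and at 66 (13.3%) and 159 (21.1%) of them it was at least 5 times. No control library and no sequence of the build was analysed, so whether a given peak came from repeated sequence or from bound Cdx1 or Cdx2 cannot be told apart.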

How the data were processed

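Peak lists deposited by the authors for 1 library per factor were analysed; samples were grouped by their titles. Per the file headers the authors called peaks in each library on its own with MACS 2.0.10.20131216 and no control. The local window was 10000 bp, the mappable genome was set to 2700000000 bp, peaks up to a q-value of 0.05 were listed, and 1 tag was retained for each position. The submitters' processing notes name bcl2fastq 1.8.3, cutadapt 1.1, Trimmomatic 0.32 and GRCh37. The aligner is not given unambiguously in the sources used here, since names in the file headers carry both bowtie and BWA. How tags with several matching places were treated is not given. The deposited columns are the pileup signal at the summit in unscaled fragments, the fold enrichment (a ratio), a score, and −log10 of the p-value and of the q-value. Of these the deposited score and p-value were not used further.

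The local background follows from the deposited pileup and fold enrichment, each with a pseudocount of 1. It gave whole tags per 10 kb (within 0.1 tag per 100) at 100% of the high-pileup peaks above the genome-wide value. Summits within 100 bp were paired. Pileup ratios were scaled by kept tags (0.838), with exact binomial (Clopper-Pearson) 95% intervals, and shares were given Wilson 95% intervals. With 1 library per factor no test was made. Named peaks were the 10 of highest pileup per list, those in the chromosome 2 bin, the 5 highest and 5 lowest ratios, and the 5 largest groups; further peaks named for their place, fold enrichment, background, length or spacing were chosen after their values were seen. The peaks, places and thresholds were chosen with earlier results of these data known. Pairing, grouping and background steps were tested on simulated data. Thresholds, distances, scaling and places were varied. Sequences and genes of the build were not used here. Calculations were made with pandas 2.3.3, numpy 2.4.6 and scipy 1.17.1 in Python 3.11.15, and plots with matplotlib 3.10.9.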

Additional observations from a re-analysis of the deposited data

Results flagged for a closer look

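Peaks with a pileup of at least 30 also occurred in data outside the rule. In the left-out block of chromosome 8 there were 517 among 4262 peaks (12.1%) in FLAG-wt-Cdx1 and 5 among 1461 (0.342%) in FLAG-wt-Cdx2. On chromosome X there were 14 among 2428 (0.577%) in FLAG-wt-Cdx1 and 11 among 3468 (0.317%) in FLAG-wt-Cdx2. These shares stand against 0.462% and 0.528% on the autosomes outside the block. With chromosomes X and Y added to the rule, 931 and 1192 peaks passed in place of 877 and 1127. Most of the peaks added were thus on chromosome Y, for which the share among its called peaks was not computed. On the mitochondrial genome all peaks called in each library passed, 13 in FLAG-wt-Cdx1 and 9 in FLAG-wt-Cdx2. No control library was analysed, and the difference between the libraries was not tested.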

How the results depend on the processing

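No paired analysis was possible because each factor has 1 library and no result comes from a test. Of 67 recomputed values, 25 stayed within the counting interval or 1.5 times the count and 42 moved. Reversal was defined for ratios only, and no ratio reversed. For counts, shares and background levels it could not occur. Values are given below for FLAG-wt-Cdx1 and then FLAG-wt-Cdx2. With a threshold of 25 there were 1654 and 1844 high-pileup peaks, 1388 and 1588 groups, 15.6% and 12.8% near the peak-free interval, and a median background of 2.40 and 2.66 times the genome-wide level. With a threshold of 40 there were 493 and 647 peaks, 362 and 499 groups, 27.2% and 22.3% near the interval, 9.27% near an outermost summit in FLAG-wt-Cdx2, and a background of 5.02 and 6.29 times. With the chromosome 8 block kept FLAG-wt-Cdx1 had 1394 peaks. Summits within 50 bp paired 70.8% and 76.3%, within 200 bp 87.3% and 89.9%, and overlap by at least 1 bp shared 97.7% and 97.3%. The median ratio over all pairs was 1.31 and 1.82. It was 1.099 and 1.52 unscaled, 1.75 in FLAG-wt-Cdx2 when scaled by the genome-wide background, 2.01 in FLAG-wt-Cdx2 for pairs elsewhere only, and 1.53 for pairs chosen by summed pileup, an alternative added after seeing the data. With limits of 1 Mb and 5 Mb, 19.0% and 26.8% of FLAG-wt-Cdx1 peaks and 14.7% and 20.9% of FLAG-wt-Cdx2 peaks were near the interval, and 3.31% and 22.1%, and 2.75% and 17.5%, near an outermost summit. With each group counted once 9.78% and 6.70% were near the interval. With the fragments under the summit taken out the background was 2.84 and 2.64 times. Fewer or more peaks passing, or wider limits, give these shifts by construction where a threshold or distance was changed, and the cause of the other shifts was not tested. The planned look at the sequence around summits was not run, since no genome of the build was used here. Saturation limits what pileups near the ceiling can show.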
